A study of Mus musculus with 9 samples.

Results

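The 47 genes described here encode long brain transcripts known as targets of FMRP, the RNA-binding protein lost in fragile X syndrome, and lie outside the usual lists of synaptic receptors, channels and scaffolds. They were chosen by symbol, from microtubule-binding proteins and motors to ubiquitin ligases, chromatin regulators and adhesion proteins, and all 47 were found among the 22255 gene identifiers of the deposited count table. The rule that picks them uses no measured value, but the list was chosen with earlier results of these data known. All 47 passed the filter on low counts, with between 90 counts (Celsr3) and 82073 counts (App) in a sample. RNA came from synaptoneurosomes, a fraction enriched in pinched-off synaptic terminals, prepared from frozen hippocampus. Every sample came from Fmr1 KO mice of the C57Bl/6J strain, so the controls lack FMRP as the treated mice do. Of the 9 samples, 4 (replicates A, B, C and E) were from mice given AM6545, which blocks the CB1 cannabinoid receptor and enters the brain poorly, and 5 (replicates A to E) from mice given vehicle; administration was sub-chronic. Dose, age, sex and the number of animals per sample are not given in the sources used here, nothing says that samples came from separate animals, and p-values therefore measure the spread between these samples. With no mouse that has FMRP in the comparison, the values say nothing of what loss of FMRP does to these transcripts.

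FMRP associates with polyribosomes on the coding sequence of many long neuronal messages and is known as a brake on their translation. In fragile X mice the loss of that brake is linked to excess protein synthesis in the hippocampus and to altered synaptic plasticity. Some of the messages travel into dendrites and axons, and several of the genes are also risk genes for autism and intellectual disability. Transcript counts, as used here, measure the amount of message and not the protein made from it.

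The length of these transcripts was visible in the annotation. In GENCODE M21 the longest annotated transcript of a member had a median of 11330 bases, against 3456 bases over the 14512 genes tested. The longest was that of Macf1, with 23495 bases, and the shortest that of Adgrb2, with 5170 bases. Coding sequences had a median of 7905 bases, against 1407 bases. GC content had a median of 50.8% against 50.9%.

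Short elements have been reported at sites that FMRP contacts in messenger RNA, among them TGGA or AGGA and ACTT or ACTG (given in DNA letters; sense strand of the coding sequence only, overlaps counted). The members did not carry more of them per length than other genes. The first pair occurred 16.2 times per kilobase of coding sequence in the members (median), against 16.3 over all genes tested, and the second pair 7.98 times against 8.29. A local cluster, with at least 5 TGGA or AGGA within 60 bases of spliced coding sequence, was present in 39 of 47 members (83.0%) and in 27.1% of the genes tested with a coding sequence. The share was also high in other genes with long coding sequences: 71.0% of 93 non-members of like level, with a coding sequence at least as long as the lower quartile of the members, had such a cluster. A match is a description of the letters and not a site.

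The densest 60-base coding stretches that lie within 1 exon are shown for 1 or 2 members of each role, to let a reader see what such a cluster looks like; capitals mark TGGA and AGGA, and each is from the transcript with the longest coding sequence (GENCODE M21, GRCm38, 5′ to 3′ on the coding strand).
Map1b: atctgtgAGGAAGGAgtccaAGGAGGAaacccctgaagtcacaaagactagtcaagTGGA
Map1a: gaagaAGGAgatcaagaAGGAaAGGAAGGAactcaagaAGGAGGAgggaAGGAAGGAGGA
Kif1a: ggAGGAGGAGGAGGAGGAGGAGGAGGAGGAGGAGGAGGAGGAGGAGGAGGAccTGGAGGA
Huwe1: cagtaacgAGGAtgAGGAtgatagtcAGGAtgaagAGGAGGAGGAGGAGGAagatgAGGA
Chd4: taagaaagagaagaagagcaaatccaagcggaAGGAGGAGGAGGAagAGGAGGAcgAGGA
App: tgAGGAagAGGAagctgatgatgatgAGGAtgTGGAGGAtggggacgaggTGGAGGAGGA
Wnk1: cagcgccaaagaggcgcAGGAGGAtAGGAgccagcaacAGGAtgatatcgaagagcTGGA
The Kif1a stretch held 18 matches, most of them in an uninterrupted run of GAG codons, which encode glutamate (GRCm38 chr1:93051484-93051543, minus strand, exon 27 of 49). Huwe1 (chrX:151907015-151907074, plus strand, exon 53 of 83) and Map1a (chr2:121300675-121300734, plus strand, exon 5 of 7) held 9 each. App held 8 (chr16:85056419-85056478, minus strand, exon 6 of 18) and Chd4 7 (chr6:125100921-125100980, plus strand, exon 4 of 39). In 5 members, Chd4 among them with 8, a stretch that spans a junction of exons held more. Map1b, a long-studied FMRP target, held 5 (chr13:99434488-99434547, minus strand, exon 5 of 7), as did Wnk1 (chr6:120037010-120037069, minus strand, exon 1 of 28).

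Libraries held 17628922 to 27263393 counts. Neuronal and synaptic terminal markers were all detected, with summed levels of 8612 to 9317 CPM in AM6545 samples and 7822 to 10190 CPM in vehicle samples over 10 terminal markers; CPM is a count scaled to a common library size with TMM. The fraction also held RNA of other cells: the 10 oligodendrocyte markers summed to 13276 to 19043 CPM in AM6545 samples and 10946 to 22724 CPM in vehicle samples and the 10 astrocyte markers to 3991 to 4155 CPM in AM6545 samples and 3143 to 4952 CPM in vehicle samples. Choroid plexus markers summed to 72.8 to 1019.9 CPM in AM6545 samples and 60.4 to 4614 CPM in vehicle samples, with vehicle A, D and E highest. Fmr1 itself was still counted in every sample, with a mean of 10.1 ± 0.754 CPM (SD, n = 4) after AM6545 and of 11.7 ± 1.18 CPM (SD, n = 5) after vehicle. Without an intact Fmr1 gene for reference that level does not check the knockout. In bulk samples, fewer cells of a type and less RNA per cell cannot be told apart.

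The members were mostly a little more abundant in AM6545 samples than in vehicle samples, but no single one passed the test. Of 47 members, 41 had a log2 fold change above 0 and 6 below 0, where 48.2% of all 14512 genes tested were above 0. The median log2 fold change of the members was 0.15, with an interquartile range of 0.093 to 0.23 and extremes of -0.090 (Chd6) and 0.33 (Wnk2); over all genes tested the median was -0.0090. By edgeR's quasi-likelihood test with Benjamini-Hochberg adjustment over all genes, 0 members had an adjusted p under 0.05, as did 0% of all genes, and the smallest adjusted p of a member was 0.653. DESeq2 and limma-voom with the same adjustment also gave 0. At an unadjusted p under 0.05 there were 5 members, against 7.21% of all genes in either direction. All 5 were higher (10.6%, against 3.03% of all genes) and 0 lower (against 4.18%). These 5 were Plxna4, Map1b, Wnk2, Map1a and Ubr4. Map1b was the 1 member whose AM6545 samples all lay above all vehicle samples, a pattern shown by 0.579% of all genes, and 0 members had the reverse pattern, shown by 0.868%. With each sample's trend with transcript length removed, Map1b too overlapped between groups.

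Markers of several cell types also had values mostly to one side of 0, none of them past the adjusted threshold by edgeR. Of 10 neuronal markers, 8 were above 0, with a median log2 fold change of 0.14, and of 10 synaptic terminal markers 7, with a median of 0.12; 0 of either list had an unadjusted p under 0.05. These medians are close to that of the members. The neuronal markers had a median transcript length of 1708 bases, against 6492 for the members, and a median GC content of 54.9% against 50.8%. Their summed level was 8315 to 9336 CPM in AM6545 samples, inside the 7415 to 10024 CPM of vehicle samples. The neuronal and terminal lists share Snap25 and Camk2a. Bsn, Dlg4, Shank3 and Camk2a are also in the list of synaptic and channel FMRP targets given below. All 10 choroid plexus markers were below 0 (median -1.49, 3 with an unadjusted p under 0.05), as were all 8 ependymal markers (median -0.85, 6 with an unadjusted p under 0.05) and 8 of 9 endothelial markers (median -0.24, 3 with an unadjusted p under 0.05). All 5 erythrocyte markers were below 0 too (median -0.43, 0 with an unadjusted p under 0.05). Of 10 microglia markers, 7 were above 0 (median 0.072, 1 with an unadjusted p under 0.05). Other lists were mixed, with 4 of 10 astrocyte, 4 of 10 oligodendrocyte, 5 of 8 oligodendrocyte precursor and 5 of 10 mural and leptomeningeal markers above 0. What part the mix of cells has in the values of the members was not tested.

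The precision sets a limit on what these samples can show. The median standard error of a member's log2 fold change was 0.11, and the 95% intervals of 42 of the 47 members included 0. Over all members the intervals reached from a 0.773-fold to a 1.55-fold level, so that changes of 2-fold in either direction lie outside every member's interval. The number of members at an unadjusted p under 0.05 was unstable: it ran from 0 without vehicle E to 10 without AM6545 C or without vehicle B. Of all genes, 6.54% had such a p without vehicle E, 4.71% without AM6545 C and 12.5% without vehicle B.

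**Figure D1:**
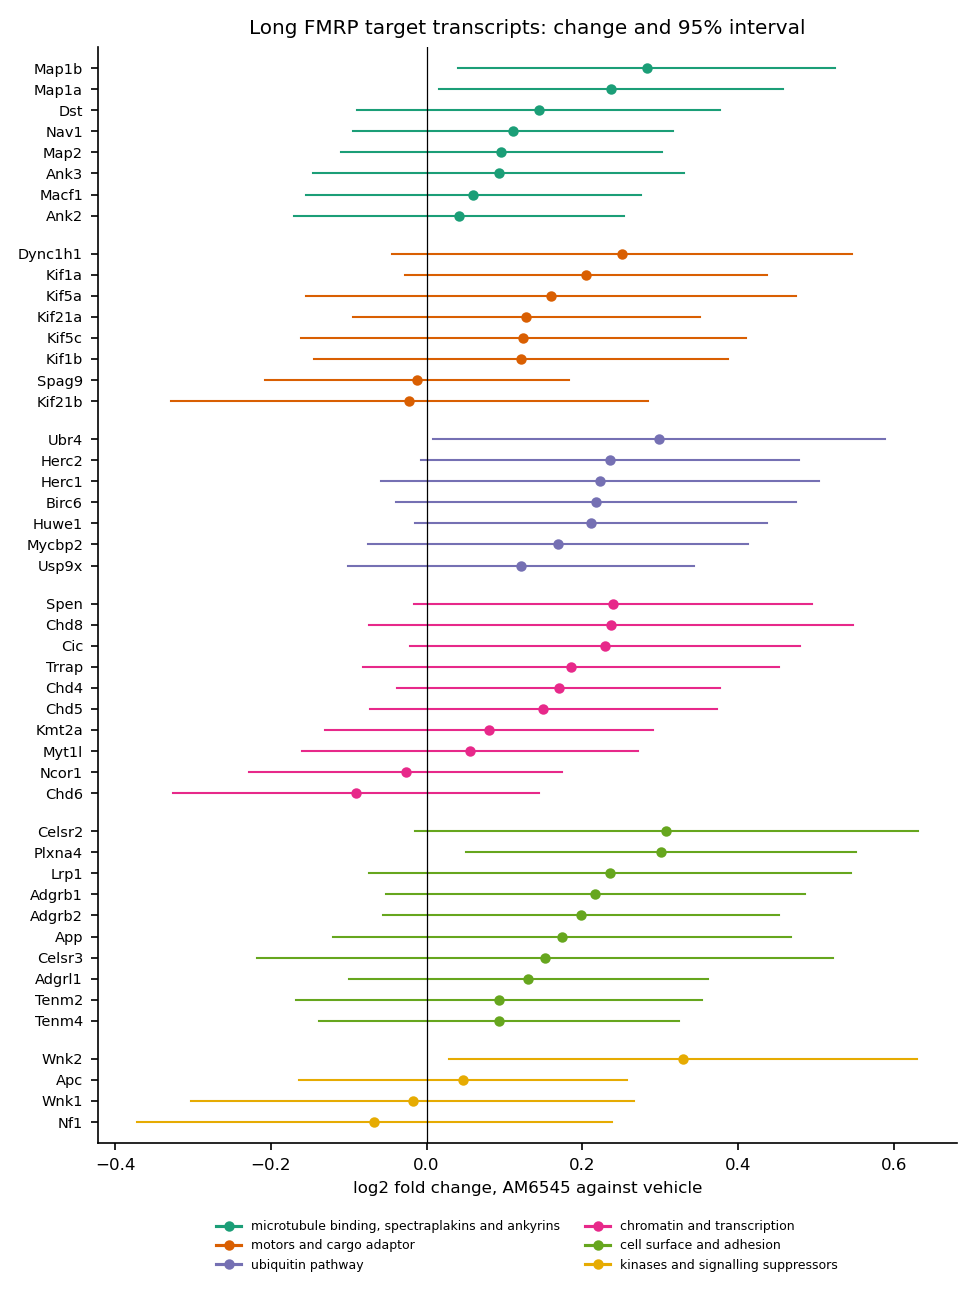
Log2 fold change of AM6545 against vehicle (x axis) for each of the 47 members, with the 95% interval from edgeR's quasi-likelihood fit as a line, in blocks by role. Most points lie right of 0, from -0.090 to 0.33, and the intervals of 42 members cross 0.

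Among genes that bind or organise microtubules and the membrane skeleton, all 8 had a fold change above 0 on the log2 scale, with a median of 0.10. None passed the adjusted threshold by edgeR, and 2 had an unadjusted p under 0.05. Map1b, which stabilises microtubules in growing axons and was among the first messages tied to FMRP, was at 2232 CPM in AM6545 A, 2328 in B, 1942 in C and 2030.4 in E. The values without the drug were 1589.98, 1799, 1840.3, 1912 and 1628 CPM in vehicle A to E. The lowest AM6545 sample, C, was only a little above the highest vehicle sample, D, and the groups did not overlap. Map1b had a log2 fold change of 0.28 (SE 0.11, 95% interval 0.041 to 0.52, edgeR adjusted p = 0.653). Map1b was also the most abundant member of this role per length, at 163 CPM per kilobase of its longest transcript.

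Map1a, its counterpart in mature neurons, was at 244 CPM in AM6545 A, 274 in B, 211 in C and 214 in E, against 191, 224, 197, 202 and 187 CPM in vehicle A to E. AM6545 A and B were above every vehicle sample, while C and E lay just below vehicle B and above the other vehicle samples. Its log2 fold change was 0.24 (SE 0.10, edgeR adjusted p = 0.653), and 0.16 without AM6545 B. In M21, 272 of its exonic bases are shared with Ppip5k1 on the other strand, and strand use in counting is not given in the sources used here. Map2, the dendritic microtubule-associated protein, had a log2 fold change of 0.096 over a range of 315 to 392 CPM. The spectraplakins Dst and Macf1, giant linkers of actin and microtubules, were at 0.14 and 0.060, and Nav1, a neuron navigator that follows microtubule tips, was at 0.11. The ankyrins Ank2 and Ank3 tie membrane proteins to the spectrin skeleton, Ank3 at the axon initial segment; their log2 fold changes were 0.041 and 0.093, each smaller than its standard error.

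**Figure D2:**
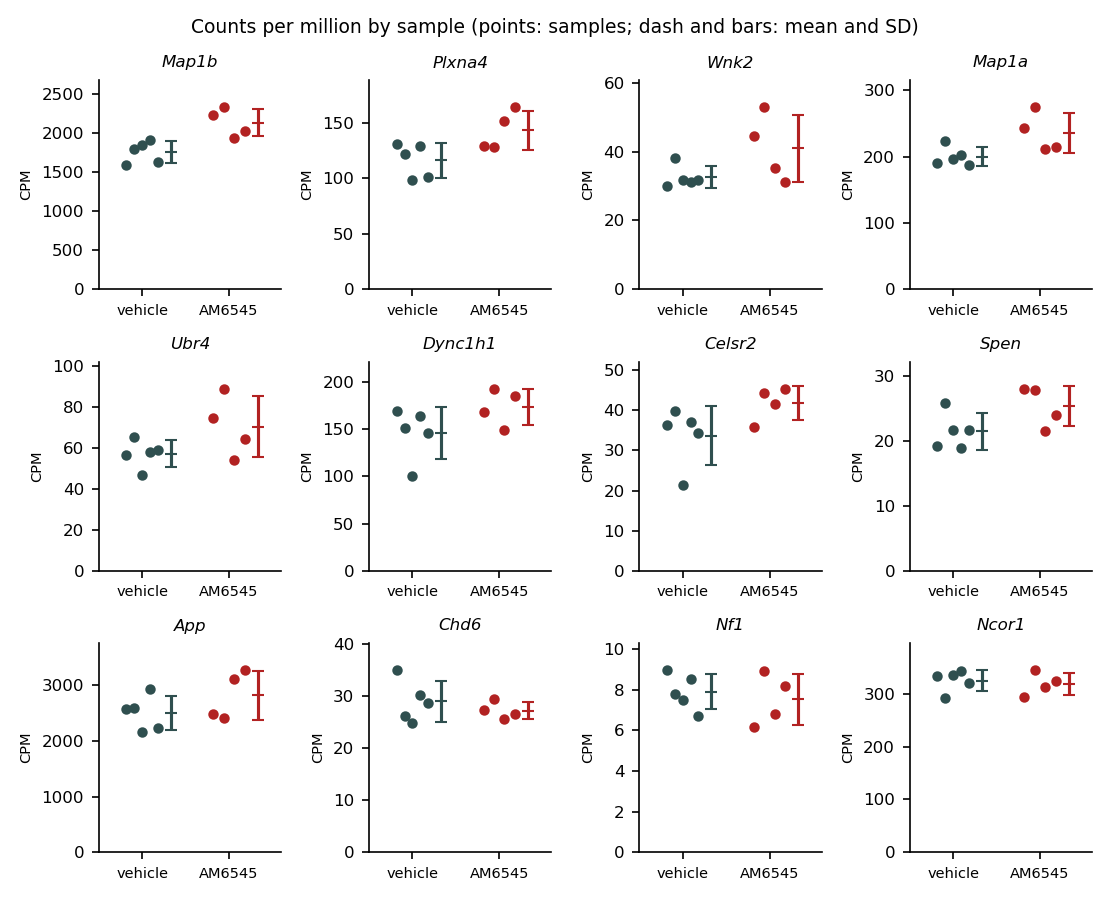
CPM (y axis, from 0) of 12 members in vehicle (dark) and AM6545 (red) samples, with each sample as a point and the mean and SD at its side. Map1b has no overlap between groups, while Chd6, Nf1 and Ncor1 lie at like levels in both.

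Motor proteins carry vesicles, mitochondria and RNA granules along these tracks. Of 8 members, 6 were above 0 and 2 below, with a median log2 fold change of 0.13. None passed the adjusted threshold by edgeR, and 0 had an unadjusted p under 0.05. The widest difference was that of Dync1h1, the heavy chain of dynein, which moves cargo toward the cell body: it was at 168 CPM in AM6545 A, 193 in B, 149 in C and 185 in E, against 169, 151, 100.4, 164 and 146 CPM in vehicle A to E. Vehicle C was far below all other samples, and the other vehicle samples overlapped with the AM6545 samples. The log2 fold change was 0.25 (SE 0.14, edgeR adjusted p = 0.653), and it was 0.14 without vehicle C. Kif5a, a heavy chain of conventional kinesin and the most abundant of the role per length (151 CPM per kilobase), was at 1022 CPM in AM6545 A, 1087 in B, 867 in C and 1050.5 in E, against 946, 1199, 824, 691 and 844 CPM in vehicle A to E. The vehicle range, from D to B, enclosed all AM6545 values. The log2 fold change was 0.16 (SE 0.15), and 0.29 without vehicle B and 0.078 without vehicle D.

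Kif1a, which carries precursors of synaptic vesicles, had the smallest p of the motors: its log2 fold change was 0.20 (SE 0.11, edgeR adjusted p = 0.653). Over the 9 samples it ranged from 509 to 769 CPM. Its relative Kif1b had a log2 fold change of 0.12 (SE 0.12). Kif5c was at 0.12 and Kif21a at 0.13. Kif21b, at 7.12 to 11.0 CPM the least abundant motor, was at -0.022. Spag9, a scaffold that links cargo to motors, was among the 2 members that varied least over the 9 samples (SD 0.098 log2 CPM). It was at 92.0 CPM in AM6545 A, 92.2 in B, 89.7 in C and 111 in E, against 98.0, 98.6, 102, 91.2 and 94.5 CPM in vehicle A to E, so that AM6545 E lay above the vehicle range and C just below it. The log2 fold change was -0.012 (SE 0.091).

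The ubiquitin group had the highest median of the 6 roles, 0.22, with all 7 members above 0. None passed the adjusted threshold by edgeR, and 1 had an unadjusted p under 0.05. It comprises the ubiquitin ligases Huwe1, Herc1, Herc2, Ubr4 and Mycbp2, the ubiquitin-conjugating apoptosis inhibitor Birc6, and Usp9x, which removes ubiquitin. Ubr4, a ligase that reads destabilising N-terminal residues, was at 74.5 CPM in AM6545 A, 89.0 in B, 54.0 in C and 64.3 in E, against 56.8, 65.3, 46.8, 58.3 and 59.0 CPM in vehicle A to E. AM6545 A and B were above every vehicle sample, and C and E lay within the vehicle range. The log2 fold change was 0.30 (SE 0.14, 95% interval 0.0079 to 0.59, edgeR adjusted p = 0.653), and 0.17 without AM6545 B. Ubr4 shares 109 exonic bases with Emc1 in M21. Mycbp2, a regulator of axon growth and synapse formation and the most abundant of the role per length (11.1 CPM per kilobase), was at 173 CPM in AM6545 A, 193 in B, 155 in C and 199.9 in E, against 184, 154, 134, 178 and 151 CPM in vehicle A to E. AM6545 B and E were above every vehicle sample, A and C lay within the vehicle range, and the log2 fold change was 0.17 (SE 0.11), and 0.11 without vehicle C. The others were at 0.24 (Herc2), 0.22 (Herc1), 0.22 (Birc6), 0.21 (Huwe1) and 0.12 (Usp9x).

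Chromatin and transcription regulators were the largest block together with surface proteins, and 8 of 10 were above 0, with a median of 0.16. None passed the adjusted threshold by edgeR, and 0 had an unadjusted p under 0.05. Spen, a corepressor, was at 28.1 CPM in AM6545 A, 27.9 in B, 21.6 in C and 24.1 in E, against 19.2, 25.9, 21.8, 18.9 and 21.7 CPM in vehicle A to E. AM6545 A and B exceeded all vehicle samples, C lay among them, and E was below vehicle B. Its log2 fold change was 0.24 (SE 0.12, edgeR adjusted p = 0.653), and 0.14 with trends of length and GC content removed. Close to it were Chd8, a remodeller and autism risk gene, at 0.24 (SE 0.15) and the repressor Cic at 0.23 (SE 0.12).

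Trrap, a subunit of histone acetyltransferase complexes, was at 0.19, and the remodellers Chd4 and Chd5 were at 0.17 and 0.15. The histone methyltransferase Kmt2a was at 0.080 and Myt1l, a neuronal transcription factor, at 0.056. Chd6, a further remodeller, had the lowest fold change of all members. It was at 27.3 CPM in AM6545 A, 29.6 in B, 25.6 in C and 26.5 in E, against 35.0, 26.2, 24.9, 30.3 and 28.8 CPM in vehicle A to E; only vehicle A and D exceeded all AM6545 samples, and the log2 fold change was -0.090 (SE 0.11, edgeR adjusted p = 0.820), and -0.016 without vehicle A. Ncor1, a nuclear receptor corepressor, was the most abundant of the role per length, at 35.6 CPM per kilobase, and the steadiest member of all (SD 0.089 log2 CPM). It was at 293 CPM in AM6545 A, 344 in B, 312 in C and 324 in E, against 333, 292, 334, 343 and 319.6 CPM in vehicle A to E, with a log2 fold change of -0.027 (SE 0.094). The groups overlapped almost fully.

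All 10 cell surface genes were above 0 as well, with a median of 0.19. None passed the adjusted threshold by edgeR, and 1 had an unadjusted p under 0.05. Plxna4, a semaphorin receptor that guides axons and shapes dendrites, had the smallest p of all members. It was at 129 CPM in AM6545 A, 128 in B, 152 in C and 164 in E, against 131, 122, 98.2, 129 and 101 CPM in vehicle A to E. AM6545 C and E exceeded every vehicle sample, while A and B lay just under vehicle A. The log2 fold change was 0.30 (SE 0.12, 95% interval 0.051 to 0.55, edgeR adjusted p = 0.653, unadjusted p = 0.0218).

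Celsr2 and Celsr3, large cadherins that steer axon tracts, varied most between samples of all members. Celsr2 was at 35.8 CPM in AM6545 A, 44.3 in B, 41.6 in C and 45.3 in E, against 36.3, 39.7, 21.3, 37.0 and 34.2 CPM in vehicle A to E. AM6545 B, C and E exceeded every vehicle sample, and vehicle C was far below all others. Celsr2 had a log2 fold change of 0.31 (SE 0.15, edgeR adjusted p = 0.653), which was 0.18 without that sample. Celsr3, scarce at 4.57 to 8.78 CPM, was at 6.77 CPM in AM6545 A, 6.91 in B, 7.17 in C and 8.78 in E, against 8.67, 7.65, 4.57, 6.00 and 6.49 CPM in vehicle A to E, again with its minimum in vehicle C. Its AM6545 samples lay within the vehicle range except E, which was just above vehicle A. It had a log2 fold change of 0.15 (SE 0.17), which was 0.046 without vehicle C and 0.059 without AM6545 E.

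App, the amyloid precursor protein and the most abundant member per length (323 CPM per kilobase), was at 2483 CPM in AM6545 A, 2402 in B, 3102 in C and 3260.4 in E, against 2576, 2581, 2163, 2918 and 2227 CPM in vehicle A to E. AM6545 C and E were above all vehicle samples, and A and B lay inside the vehicle range. App had a log2 fold change of 0.17 (SE 0.14, edgeR adjusted p = 0.717), and 0.095 without AM6545 E. Lrp1, a lipoprotein receptor that binds App, was at 0.24. The adhesion receptors Adgrb1, Adgrb2 and Adgrl1 were at 0.22, 0.20 and 0.13, and the teneurins Tenm2 and Tenm4, which bind latrophilins across the synapse, at 0.093 and 0.093.

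The 4 kinases and signalling suppressors had no common direction, with 2 above and 2 below 0 (median log2 fold change 0.015). None passed the adjusted threshold by edgeR, and Wnk2 alone had an unadjusted p under 0.05. Wnk2, a kinase of the family that controls chloride transport, had the highest fold change of all members: 44.6 CPM in AM6545 A, 52.8 in B, 35.2 in C and 31.1 in E, against 30.0, 38.2, 31.6, 31.1 and 31.7 CPM in vehicle A to E. AM6545 A and B were high, whereas C and E lay within the vehicle range. The log2 fold change was 0.33 (SE 0.14, 95% interval 0.029 to 0.63, edgeR adjusted p = 0.653), and 0.18 without AM6545 B. Wnk1 was at -0.018 (SE 0.13).

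Apc, which holds beta-catenin in check and caps microtubules, was the most abundant of these per length (8.31 CPM per kilobase). It was at 109 CPM in AM6545 A, 102 in B, 98.2 in C and 124 in E, against 117, 97.8, 97.4, 103 and 109 CPM in vehicle A to E. Only AM6545 E was above the vehicle range, with a log2 fold change of 0.047 (SE 0.098). Nf1, the Ras inhibitor neurofibromin, was at 6.15 CPM in AM6545 A, 8.94 in B, 6.82 in C and 8.18 in E, against 8.95, 7.80, 7.52, 8.54 and 6.73 CPM in vehicle A to E. Both groups spanned nearly the same range, AM6545 A being the lowest sample, and the log2 fold change was -0.067 (SE 0.14).

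As a group, the members stood at 6.49, 6.62, 6.40 and 6.57 in AM6545 A, B, C and E (mean log2 CPM over 47 genes), and at 6.48, 6.42, 6.23, 6.42 and 6.33 in vehicle A to E. AM6545 A, B and E were above all vehicle samples, A only just above vehicle A, the highest of them, and AM6545 C lay inside the vehicle range. The groups therefore overlapped. The mean was 6.52 ± 0.097 (SD, n = 4) against 6.38 ± 0.098 (SD, n = 5), a difference of 0.15. Sums, in which the most abundant members (App and Map1b) weigh most, gave another picture. As a share of all counts the members took 1.151%, 1.212%, 1.129% and 1.304% in AM6545 A, B, C and E, and 1.080%, 1.107%, 1.019%, 1.101% and 1.032% in vehicle A to E. On this measure the groups did not overlap, AM6545 C lying just above vehicle B. The means were 1.20% ± 0.0782 (SD, n = 4) and 1.07% ± 0.0400 (SD, n = 5). Their summed CPM likewise ran from 11476 to 12949 with AM6545 and from 9880.2 to 11421 with vehicle. No such share was computed for other genes. Less the mean log2 CPM of the 7878 genes of like length and level described below, the members' mean overlapped between groups. It ran from 1.10 to 1.32 with AM6545 and from 0.94 to 1.23 with vehicle.

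**Figure D3:**
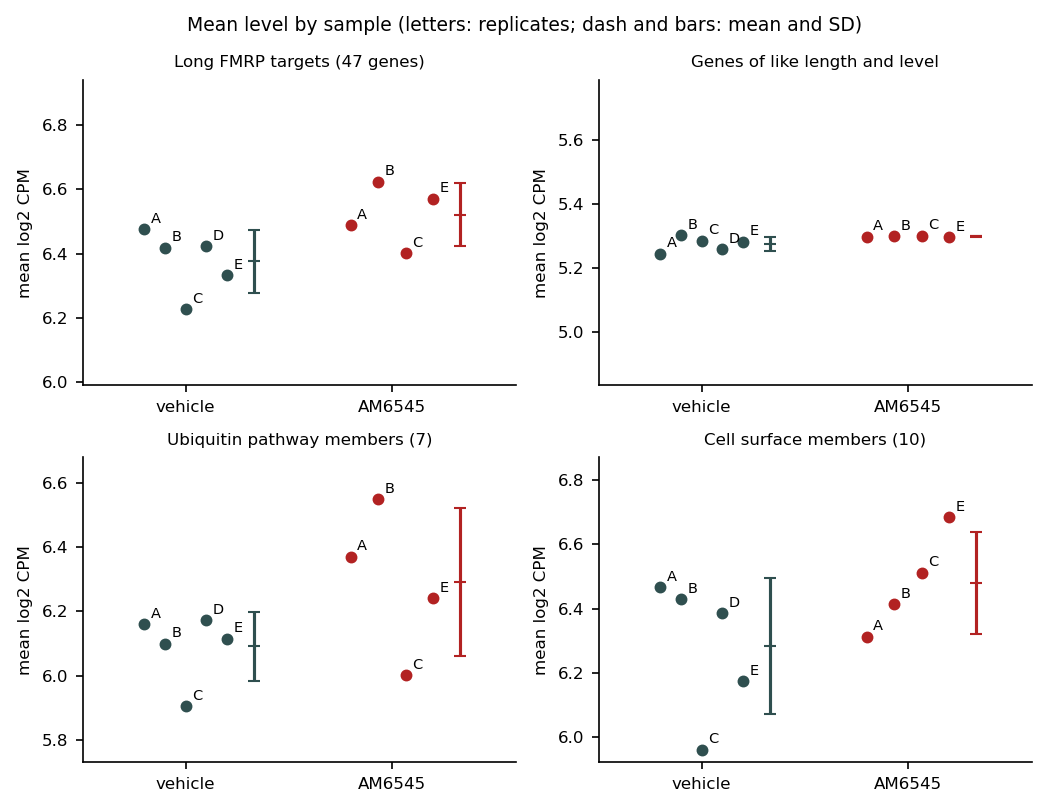
Mean log2 CPM (y axis) per sample for all members, for 7878 genes of like length and level, and for the ubiquitin and cell surface members, with replicate letters, means and SDs; the panels share the span of the y axis. Vehicle C is lowest in the 3 panels of members, ubiquitin members peak in AM6545 B and cell surface members in AM6545 E.

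The members did not vary as 1 block. Vehicle C was the lowest of the 9 samples for 26 of 47 members, and AM6545 B and E were the highest for 20 and 17. The ubiquitin members stood at 6.37, 6.55, 6.00 and 6.24 in AM6545 A, B, C and E (mean log2 CPM) and at 6.16, 6.10, 5.91, 6.17 and 6.12 in vehicle A to E, and 6 of 7 were highest in AM6545 B. The cell surface members followed another order, at 6.31, 6.41, 6.51 and 6.68 in AM6545 A, B, C and E and 6.47, 6.43, 5.96, 6.39 and 6.17 in vehicle A to E: all 10 were highest in AM6545 E and 8 were lowest in vehicle C. Among the chromatin members, 6 of 10 were highest in AM6545 B. AM6545 C was thus below every vehicle sample but C for the ubiquitin members, and above every vehicle sample for the cell surface members. These 2 roles also differed in base composition, with a median GC content of 47.9% and 57.4%, and whether composition has a part in the 2 orders was not tested. Vehicle C also had the highest sum of neuronal markers of all samples, 10024 CPM, and the lowest sums of oligodendrocyte (10946 CPM), astrocyte (3143 CPM) and microglia markers (706 CPM), whose part in the low level of the members there was not tested. Without vehicle C the median log2 fold change of the members was 0.12, with 41 of 47 above 0.

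**Figure D4:**
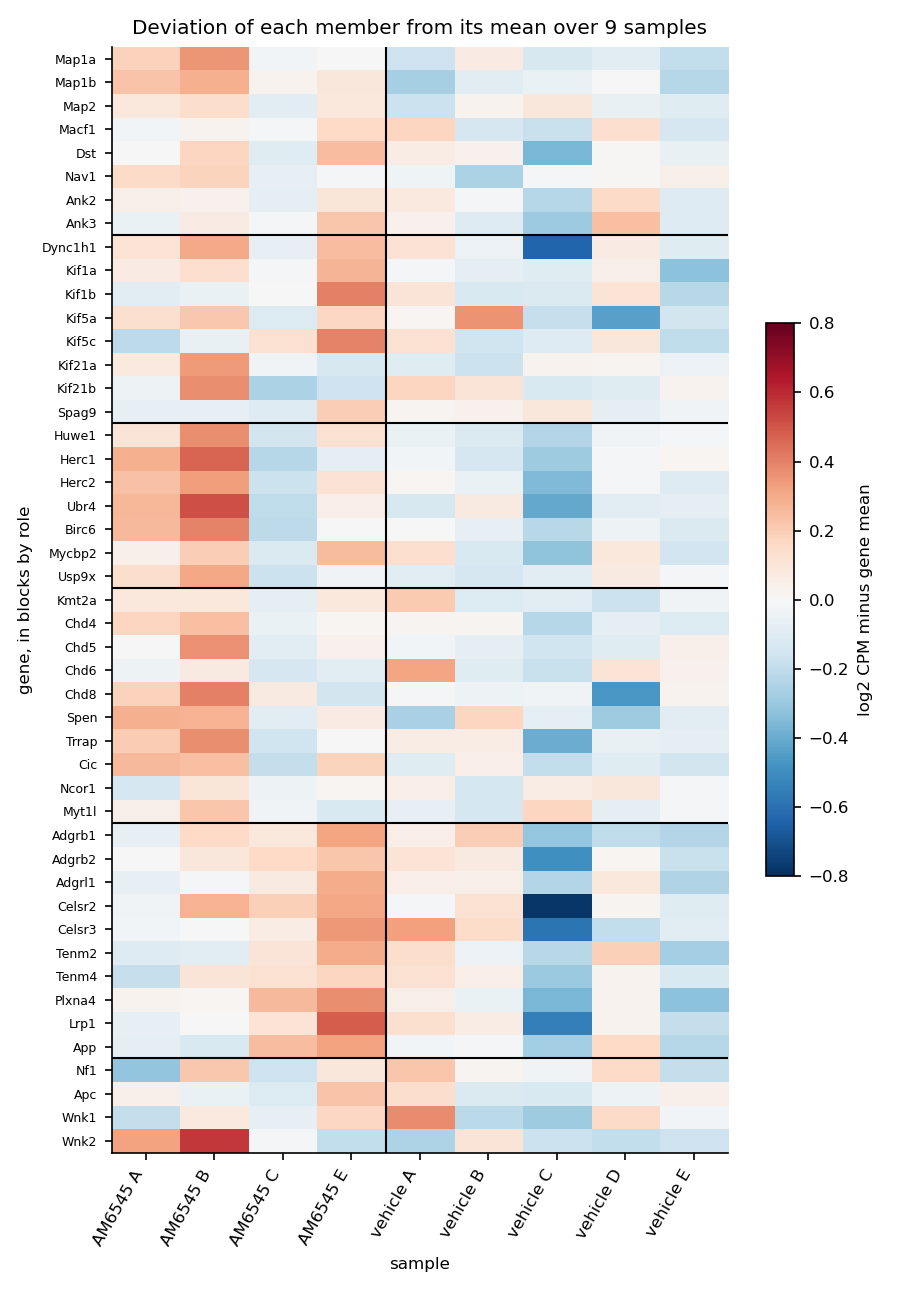
Deviation of log2 CPM from the gene's mean over 9 samples (colour, red above and blue below) for each member (rows, in blocks by role) and sample (columns, AM6545 left of the line). The vehicle C column is the lowest for 26 members, and the AM6545 B and E columns are the highest for 20 and 17.

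Each member was also set against the mean of the other 46 over the 9 samples, as a description of how alike they vary. Pearson's r had a median of 0.65 and was above 0 for 45 of 47. It was highest for Dync1h1 (0.93), Mycbp2 (0.92) and Dst (0.92), and lowest for Myt1l (-0.060) and Spag9 (-0.0088). Outside the group, the genes most like the mean of the members over these 9 samples were Ccdc88c (r = 0.94), Vps13c (0.94), Dsp (0.92), Nek9 (0.92) and Plec (0.90). Vps13c, Dsp and Plec also encode long messages, with median transcript lengths of 8736, 8677 and 14855 bases. On the same measure Nek9 was at 5386 bases and Ccdc88c, the most alike, at only 1253 bases. The median over all genes tested was 2254.5 bases. Vps13c is among the 20 long transcripts not chosen as FMRP targets that are described below. All these values share 9 libraries and their depth, and they carry no test.

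How far the shift is one of long transcripts in general was read from genes that are not members. Within the full range of the members in transcript length (median over protein-coding transcripts, 1215 to 14463 bases) and mean level, 7878 other genes had a median log2 fold change of 0.021, with 55.7% above 0. That range holds most of the genes tested and is a loose reference, so narrower ones were used too. For the 695 genes in the interquartile range of the members for both measures, the median was 0.058 and 66.3% were above 0. For the 214 of these that were also in the interquartile range for GC content, it was 0.12, with 178 of 214 (83.2%) above 0. For 93 genes of like level with a long coding sequence it was 0.12, with 82 of 93 (88.2%) above 0. The 47 members, at 0.15 and 87.2%, were thus little apart from these last references, of which 3 and 5 genes are in the list of synaptic and channel FMRP targets, and nothing is shown to be particular to the members. The last 2 references were chosen after the values of the members had been seen.

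Across all genes tested, the log2 fold change was higher for longer transcripts (Spearman's rho = 0.24 over 14494 genes) and for those of higher GC content (rho = 0.32 over 14438 genes), as a description across genes, which are not independent replicates. The median was -0.068 in the shortest tercile of genes and 0.036 in the longest. Within the members the relation with GC content was also present (rho = 0.44, 47 genes). With length it was 0.21 for the median transcript and 0.098 for the longest transcript. The 16 members of lowest GC content had a median log2 fold change of 0.12, with 13 above 0, from -0.090 (Chd6) to 0.28 (Map1b). The 16 of highest GC content had a median of 0.21, with 15 above 0, from -0.022 (Kif21b) to 0.33 (Wnk2). By role the order differed: the ubiquitin members had the highest median, 0.22, at a median GC content of 47.9%. At the other end of length, all 76 cytosolic ribosomal protein genes tested were below 0, with a median of -0.27. Their mean level was 5.53 to 5.59 log2 CPM in AM6545 samples and 5.50 to 6.18 in vehicle samples, with vehicle B and E at the level of the AM6545 samples. With each sample's trend with length removed, the median of the members was 0.12 and 42 of 47 were above 0. The genes of like length and level over the full range, the loose reference, were then at 0.0064, with 51.6% above 0. With the trends with length and GC content removed, an alternative added after seeing the data, the members were at 0.097, and 41 of 47 were above 0. The loose reference was at 0.014 there, with 54.9% above 0. Map1b was then at 0.27 and Plxna4 at 0.27, while Wnk2 was at 0.17, Spen at 0.14, Map1a at 0.15, Celsr2 at 0.19, Kif5a at 0.080 and Celsr3 at 0.032.

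**Figure D5:**
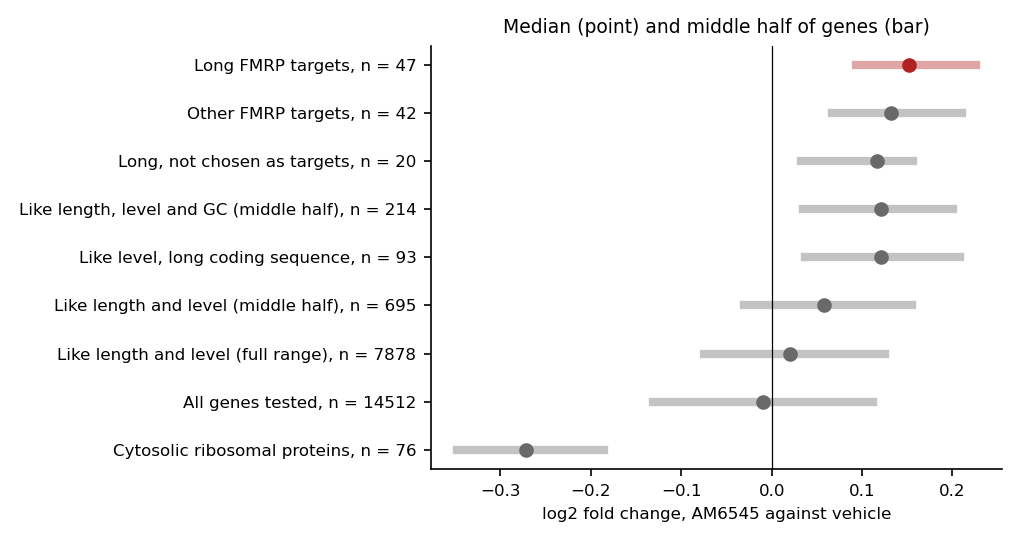
Median log2 fold change of AM6545 against vehicle (point) and the interquartile range of genes (bar) for the members and 8 reference sets, with the number of genes tested in each. The members, at 0.15, lie close to long transcripts not chosen as FMRP targets (0.12) and to genes of like length, level and GC content (0.12), and far from ribosomal proteins (-0.27).

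Other genes of the FMRP pathway gave values of the same size. Of 42 further FMRP targets with synaptic, channel or scaffold functions, 37 were above 0 and 5 below, with a median log2 fold change of 0.13; 0 passed the adjusted threshold by edgeR, and 6 had an unadjusted p under 0.05, all higher. Among those below 0 the smallest p belonged to the potassium channel Kcnq3, at a log2 fold change of -0.089 (SE 0.11). Of 20 long transcripts written down as not chosen for FMRP binding, 17 were above 0 and 3 below, with a median of 0.12 and 0 past the threshold by edgeR. Akap9 alone had an unadjusted p under 0.05. The anchoring protein gene Akap9 was at 0.30 (SE 0.13) and Dmd, which encodes dystrophin, at -0.069 (SE 0.091). That list was not checked against a catalogue of FMRP targets, so some of its genes may be bound. Of Fmr1 and 9 genes of its paralogs and partners, 7 were above 0 and 3 below, with a median of 0.098. By edgeR 0 of the 10 passed the adjusted threshold, and Cyfip1 alone had an unadjusted p under 0.05. Cyfip1, which joins FMRP to the translation initiation and actin machinery, was at 0.27 (SE 0.11, edgeR adjusted p = 0.653), and Fmr1 at -0.22 (SE 0.11, edgeR adjusted p = 0.653). These lists share the same 9 samples and are not independent of each other.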

How the data were processed

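Per the submitters' processing notes, the authors used Salmon 1.3, which estimates transcript abundance, and DESeq2 1.30, with GRCm39 and mm10 named as builds in no stated role; strand setting and annotation are not given in the sources used here. Per the labels' protocols, a SMARTer Ultra Low kit gave the libraries, sequenced on a NovaSeq. Estimated counts per gene, not scaled between samples, make up the deposited table, and 56.6% to 69.4% of values per sample are exactly whole, zeros included. They were rounded. Symbols came from GENCODE M21 by identifier without version (22155 of 22255 matched); lengths, GC content and coding sequences are from M21 (GRCm38), whose identifier versions differ from the table's in 22244 rows. Genes were kept by filterByExpr (14512 left), scaled with TMM and tested in R 4.3.3 with edgeR 4.0.16 (quasi-likelihood test, Benjamini-Hochberg adjustment over all genes, threshold 0.05). The standard error is the absolute log2 fold change over the square root of F. Log2 CPM used a prior count of 2. The test was checked on simulated data in which the altered genes changed more than any member did, so the check does not cover changes as small as theirs. No 2 libraries agreed within sampling noise.

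The members and lists were chosen with earlier results of these data known, and list members are described without a test. Values in every sample are given for members with an unadjusted p under 0.05 or ranges that did not overlap, the 3 with the smallest p per direction, per role that of the largest change and that of the highest level per kilobase, Map1b, and the 2 most and 2 least variable. Alternatives were other size factors and filters, DESeq2 1.42.0, limma-voom 3.58.1 with or without weights for samples, the title letter as a block, robust estimation, removal of mitochondrially encoded genes or of length and GC trends (lowess, span 0.3), other reference ranges, and each sample left out. In M21, 5 of 47 members share exonic bases with another gene of the table (Herc1, Map1a, Ncor1, Spen, Ubr4).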

Additional observations from a re-analysis of the deposited data

Results flagged for a closer look

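Each group's farthest sample was compared with the spread of the rest for the 47 members and 9 mean levels, 112 groups of values in all, of which 7 had a sample beyond the 95% critical value of Dixon's ratio of gap to range. Chance alone flags about 1 in 20, or 5.6 of 112. In AM6545 E, Kif1b was at 609 CPM, with the other AM6545 samples at 433 to 461 CPM, and Spag9 was at 111 CPM, with the others at 89.7 to 92.2 CPM. Kmt2a was at 32.2 CPM in AM6545 C, with the others at 35.8 to 35.9 CPM. In vehicle B, Nav1 was low, at 36.3 CPM where the remaining vehicle samples had 42.3 to 44.7 CPM, and Wnk2 was high, at 38.2 CPM against 30.0 to 31.7 CPM. Chd8 was at 5.79 CPM in vehicle D, against 7.80 to 8.18 CPM. The mean level of the ubiquitin members in vehicle C was 5.91 log2 CPM, and that of vehicle A, B, D and E lay between 6.10 and 6.17.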

How the results depend on the processing

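With 24 alternatives, of which 2 were added after seeing the data, 0 members passed the adjusted threshold in any, 40 to 45 of 47 were above 0, and their median log2 fold change ran from 0.097 (length and GC trends removed) to 0.20 (without AM6545 C). Over all genes, 0 passed except 1 without AM6545 A, so leaving samples out gave 0 to 1. Members at an unadjusted p under 0.05 numbered 5 as reported, 8 with DESeq2, 3 with limma-voom, 9 with its sample weights, 1 with the length trend removed, 3 with length and GC trends removed and 0 to 10 with a sample left out. All genes at that level numbered 1047 as reported (7.21%), 1121 with DESeq2 (7.72%), 870 with limma-voom (6.00%) and 1823 with its sample weights (12.6%). They numbered 936 with the length trend removed (6.46%), 693 with the replicate block too (4.78%) and 652 with length and GC trends removed (4.52%). With a sample left out they numbered 496 to 1848 (3.43% to 12.6%). Members whose samples did not overlap numbered 1 as reported, 2 with total counts, 2 with both vehicle A and AM6545 E left out, 0 with the length trend removed, 0 with length and GC trends removed, and 1 to 6 with a sample left out. As reported, 0.579% of all genes were higher without overlap. That share is not given for the alternatives, and with fewer samples any gene shows the pattern more easily. Whether the replicate letters pair the samples is not known. Same-letter correlations of deviations ran from -0.021 to 0.34 and those between different letters from -0.28 to 0.35, which does not decide it. With the letter as a replicate block, 42 of 47 members were above 0, with a median of 0.16, and 5 had an unadjusted p under 0.05, against 5.23% of all genes. The difference in mean level per sample, 0.15 log2 units as reported, ran from 0.076 to 0.19. The median of the reference genes, 0.021 over the full range, was 0.12 with GC content matched and 0.12 with long coding sequences, where the members' excess fell from 0.13 to 0.031 and 0.031. Of 47 members, 11 changed sign in at least 1 alternative: Wnk1 (-0.085 to 0.085), Kif21b (-0.17 to 0.069), Kif1b (-0.0048 to 0.17), Ank2 (-0.0073 to 0.090), Myt1l (-0.012 to 0.11), Adgrl1 (-0.0032 to 0.18), Tenm4 (-0.0065 to 0.17), and, among those given in every sample, Apc to -0.025 without AM6545 E, Ncor1 to 0.011 and Nf1 to 0.016 without AM6545 A, and Spag9 to 0.043 with length and GC trends removed. With a sample left out, Apc ran from -0.025 to 0.092, Ncor1 from -0.066 to 0.011, Nf1 from -0.16 to 0.016 and Spag9 from -0.087 to 0.020. Other moves of over 1.5 times included that of Kif5a, to 0.090 with the replicate block and 0.062 with the length trend removed too. App moved to 0.11 with both vehicle A and AM6545 E left out, and Chd6 to -0.0020 likewise and -0.14 with the length trend removed. Members given only by fold change also moved. Over the alternatives, Kif5c ran from 0.0014 to 0.21, Tenm2 from 0.0051 to 0.15 and Kif21a from 0.029 to 0.19. Usp9x ran from 0.035 to 0.24, Adgrb2 from 0.038 to 0.25 and Chd5 from 0.043 to 0.21. Cic ran from 0.063 to 0.32, Kif1a from 0.090 to 0.24 and Lrp1 from 0.10 to 0.30. The causes were not tested. Every member had at least 90 counts in every sample.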
